A study of Drosophila melanogaster with 4 samples.

Results

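The subject is a stretch of 4 Mb near the distal (telomeric) end of the X chromosome of *Drosophila melanogaster*, from 1 to 5 Mb of the FlyBase release 5 sequence, and the regions in it that were enriched for the chromatin protein Su(var)3-7. Its members are the 307 regions of the authors' combined list whose midpoint lies at X 1000001 to 5000000, out of 1568 regions on the X and 10603 in all. The same interval held 174 of 6098 regions in the list of replicate 1 and 183 of 6295 in that of replicate 2. The study profiled Su(var)3-7 by ChIP-seq (sequencing of DNA that an antibody pulls down from crosslinked chromatin), using antibody Su(var)3-7-Q3448 in wild-type embryos of the Oregon-R strain (Oregon-R-modENCODE) aged 14 to 16 h, crosslinked in 1.8% formaldehyde. There were 2 ChIP libraries and 2 input libraries of genomic DNA, each input being named in the labels as the control of 1 ChIP list. The inputs have no list of their own here, and the labels give neither the sex of the embryos nor whether the replicates were separate collections, so the spread between replicates may be technical.

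Su(var)3-7 is a zinc-finger protein known from screens for suppressors of position-effect variegation, the silencing of genes placed next to heterochromatin. It binds together with heterochromatin protein HP1 and the histone methyltransferase Su(var)3-9 at pericentric heterochromatin, and also at sites on the euchromatic arms. The male X is known to be sensitive to its dose, since the polytene X of male larvae changes shape when the protein is lost or overproduced. The distal X is the part of that chromosome that carries *white* and *Notch* and the dosage-compensation RNA gene *roX1*. No gene is placed at a region below, because the gene table used here is of release 6 and the regions are of release 5.

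The members were chosen by position, and the position was selected on the coverage of these same lists, so the level of the interval is described here and not tested. Coverage means the share of a stretch, in percent of its bases, taken up by enriched regions. Regions covered 11.3% of the interval in replicate 1 and 12.4% in replicate 2, a mean of 11.8% ± 0.820 (SD, n = 2). The rest of the X was covered over 6.77% in replicate 1 and 7.46% in replicate 2, a mean of 7.12% ± 0.487. Both values of the interval were above both values of the rest, and the ratio was 1.66 ± 0.00124 (SD, n = 2). In the combined list, which has more regions, the interval was covered over 22.0% and the rest of the X over 15.9%. With 17.8% of the length of the X, the interval held 26.5% ± 0.0145 of its covered bases in the replicates and 23.2% in the combined list. These differences were not tested, because the interval was selected on coverage, and no read counts come with the lists, which leaves the depth behind them unknown.

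Coverage was spread unevenly within the interval. The first Mb, from 1 to 2 Mb, had a coverage of 24.9% (replicate 1), 25.8% (replicate 2) and 42.9% (combined list), and it ranked first among the 22 whole-Mb windows of the X in each of the 3 lists. The window from 2 to 3 Mb had 10.4%, 13.6% and 24.9%, in that order. From 3 to 4 Mb the values were 5.08%, 4.92% and 10.4%, and from 4 to 5 Mb they were 4.73%, 5.41% and 9.92%. The distal 2 Mb of the interval thus lay above the proximal 2 Mb in every list. The last 2 windows did not differ beyond their spread (5.00% ± 0.109 and 5.07% ± 0.482, SD, n = 2).

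In bins of 100 kb the dense part formed 1 stretch with a dip. A dense zone was delimited, after the data were seen, as the longest run of bins inside the interval at or above the coverage of the whole X, with 1 lower bin allowed. It ran from 1 to 2.6 Mb in each of the 3 lists. Searched over the whole X, the run kept these ends in both replicates, but in the combined list it began outside the interval, at 0.4 Mb, and ended at 2.6 Mb. Of its 16 bins, 15 were at or above the coverage of the X in each list (7.57% in replicate 1, 8.35% in replicate 2, 16.96% in the combined list). The remaining 24 bins, from 2.6 to 5 Mb, are called the sparse zone, and 3, 2 and 2 of them reached that level in replicate 1, replicate 2 and the combined list.

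**Figure D1:**
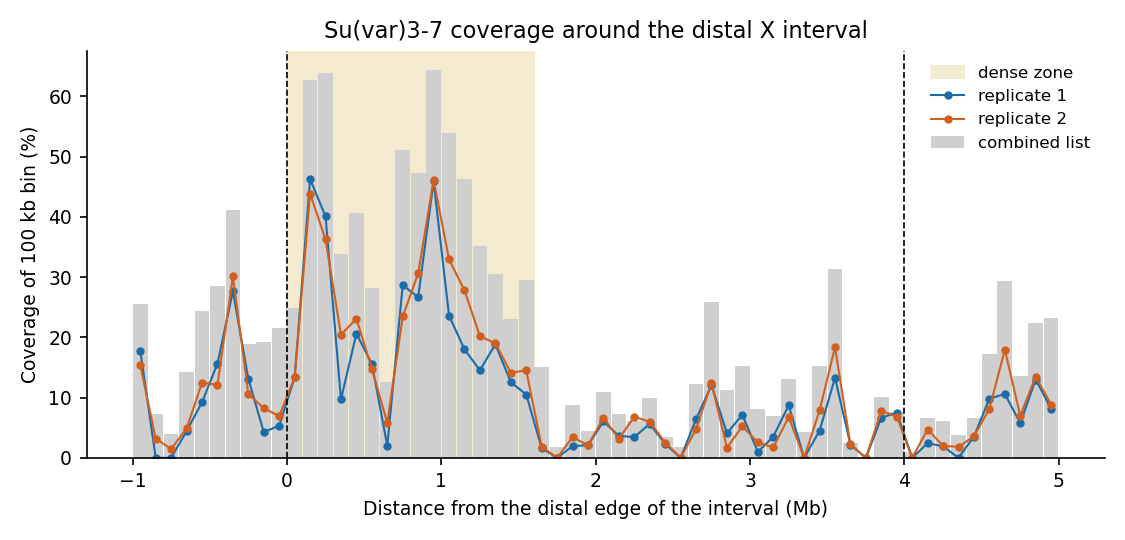
Coverage of 100 kb bins (y axis, percent of bases in enriched regions) from 1 Mb before to 1 Mb after the interval (x axis, Mb from its distal edge; dashed lines mark both edges). Grey bars are the combined list and lines with dots the 2 replicates; the shaded dense zone of 1.6 Mb has 2 crests and 1 low bin between them.

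The dense zone had 2 crests. The distal crest lay at 1.1 to 1.3 Mb. Its first bin had a coverage of 46.3% in replicate 1, of 43.9% in replicate 2 and of 62.7% in the combined list, and its second bin 40.1%, 36.2% and 63.9%. The proximal crest peaked at 1.9 to 2 Mb, where the bin was covered over 45.9%, 46.1% and 64.4%. These 3 bins were among the 4 most covered of the 224 full 100 kb bins of the X in each list. The bin between the crests, from 1.6 to 1.7 Mb, was covered over 2.00%, 5.78% and 12.6%, below the level of the X in all 3 lists.

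By a stricter criterion, the longest run of 100 kb bins with at least 2 times the coverage of the X, the dense stretch was 0.6 Mb long in the combined list, from 1.7 to 2.3 Mb. It was covered over 49.7% there. In replicate 1 the run was 0.5 Mb long, from 1.7 to 2.2 Mb, and in replicate 2 it was 0.7 Mb, from 1.7 to 2.4 Mb. The distal end of this run was the same in the 3 lists and its proximal end differed by up to 2 bins. With bins of 200 kb the longest run of the combined list and of replicate 2 took in the distal crest, from 1 to 1.6 Mb, and that of replicate 1 spanned both crests, from 1 to 2.4 Mb (1.4 Mb). At 3 times the coverage of the X it was 0.2 Mb long, from 1.1 to 1.3 Mb, in the combined list, and 0.4 Mb long in the proximal crest of each replicate, from 1.7 to 2.1 Mb in replicate 1 and from 1.8 to 2.2 Mb in replicate 2. Which crest held the longest run thus depended on the bin size, the multiple and the list.

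The edges of the dense zone differed in shape. At the distal side, coverage was 6.15% ± 1.13 in the 100 kb before the interval and 13.4% ± 0.0177 in the first 100 kb inside it (SD, n = 2), and it stood at 29.2% ± 0.855 over the first 200 kb against 6.19% ± 1.97 over the 200 kb before. The distal limit of the interval is not an end of enrichment in the combined list, where every bin from 0.4 to 1.6 Mb was at or above the level of the X. The bin from 0.6 to 0.7 Mb, outside the interval, was covered over 27.6%, 30.1% and 41.1% in replicate 1, replicate 2 and the combined list. In the replicates the bins from 0.8 to 1 Mb lay between 4.25% and 8.23%, below the level of the X in each list.

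At the proximal side the fall was larger relative to the level. The zone was ended where bins fell below the level of the X, so a fall there follows in part from the cut. The distal limit is the start of the interval. Coverage was 12.5% ± 2.84 in the last 100 kb of the dense zone and 1.72% ± 0.192 in the 100 kb after it (SD, n = 2). Over 200 kb on each side it was 12.9% ± 1.97 and 0.860% ± 0.0958, and over 400 kb 15.5% ± 2.01 and 1.63% ± 0.307. In percentage points the distal step was the larger over 200 kb and the proximal step over 100 kb. In the combined list coverage was 29.5% in the last 100 kb and 15.05% in the 100 kb after it. In that list X 2600001 to 2620000 and X 2620001 to 2640000 were still covered over 36.9% and 32.5%. Its fall thus lay beyond the edge of the zone. Beyond this edge, the 213129 bp from X 2628448 to 2841576 held no region in either replicate. This was the longest such stretch of the interval, and 3 regions of the combined list overlapped it.

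At the thresholds themselves, the last region before the interval was X 995203 to 997007, with a score of 0.400, and the first member was X 1003136 to 1004260, with a score of 0.419. The last member was X 4990153 to 4997811, with a score of 0.866, and the next region beyond it was X 5023822 to 5024829, with a score of 0.569. At the end of the dense zone the neighbours were X 2596178 to 2598493 (score 0.616) inside and X 2600556 to 2601703 (score 0.372) outside. The score is the authors' own value for each region; its scale is not given in the sources used here, and it is read within a list only.

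The dense zone held more regions per Mb, and the regions were also wider. With 40% of the interval's length it had 200 of the 307 members and 73.5% of their covered bases. Replicate 1 had 127 of its 174 regions there and replicate 2 had 131 of 183. Coverage was 21.7% in replicate 1 and 24.1% in replicate 2 in the dense zone, against 4.32% and 4.61% in the sparse zone, and the replicate values of the zones did not overlap. The zones were cut by coverage, so a difference follows from the choice, and the sizes are given as a description. The coverage ratio was 5.13 ± 0.153 in the replicates (SD, n = 2), made of 3.92 ± 0.194 times as many regions per Mb and 1.31 ± 0.104 times the mean width.

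Widths in the interval were mostly close to 2 kb with a tail of wide regions. The median width was 2076 bp and 2037 bp in the replicates and 2059 bp in the combined list, with quartiles of 1535 and 3529 bp in the last. The narrowest member measured 1001 bp, which is also the narrowest region of the whole combined list, and 144 of the 307 members were under 2000 bp. At the other end, 32 members were at least 5000 bp wide. They made up 10.4% of the members and 29.3% of their bases, and 27 of them lay in the dense zone. The replicate lists had 10 and 16 regions of at least 5000 bp, of which 9 and 15 lay in the dense zone.

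All 5 members of at least 10000 bp lay in the dense zone, and all 5 overlapped regions in both replicates. The widest, X 1165384 to 1184121, measured 18738 bp and formed the core of the distal crest. It was a single region in each replicate, of 18216 bp in replicate 1 and 18486 bp in replicate 2. It scored 1.34 and 1.43 in the replicates, and 1.37 in the combined list. In the same crest lay X 1269107 to 1284661, of 15555 bp, which replicate 2 listed as 1 region of 15637 bp and replicate 1 as 3 regions with 14137 bp in total.

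The other 3 wide members lay in the proximal crest. X 1855565 to 1871017, of 15453 bp, held 4 regions of replicate 1 that covered 66.9% of it and 2 regions of replicate 2 that covered 96.3%. X 1970412 to 1985647, of 15236 bp, was covered over 96.3% by replicate 1 and 97.0% by replicate 2. Just before it, X 1957526 to 1970054, of 12529 bp, was covered over 65.9% and 63.3%, and 357 bp separated these neighbours. The wide members thus differed in how the replicates divided them, from 1 unbroken region in each to 4 pieces in 1 replicate.

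Joined across gaps of up to 1000 bp, the 307 members made 226 domains, of which 52 joined 2 or more members and took in 133 of them. The longest domain, X 1148687 to 1184121, spanned 35435 bp with 5 members that covered 91.5% of it, and replicate regions covered 74.0% and 69.7% of it. The second, X 1952117 to 1985647, spanned 33531 bp with 3 members that covered 97.2%, and replicate regions covered 74.2% and 72.3%. The third, X 2047056 to 2069836, spanned 22781 bp with 5 members. Each of these 3 domains lay in the dense zone, and in each the replicate lists left more unlisted bases than the combined list did.

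**Figure D2:**
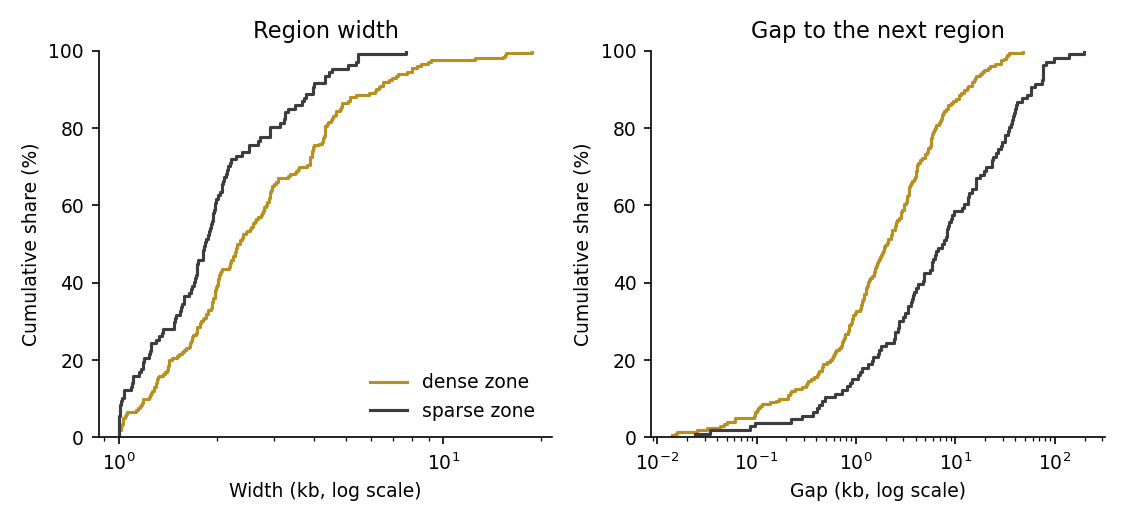
Cumulative share of combined-list members (y axes, percent) by width (left) and by the gap to the next member (right), both in kb on log axes, for the dense and the sparse zone. Widths had medians of 2338 bp and 1844 bp and gaps medians of 2065 bp and 7490 bp in the dense and the sparse zone.

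Spacing differed between the zones by a larger factor than width did. The median gap between neighbouring members was 2065 bp in the dense zone and 7490 bp in the sparse zone in the combined list. In replicate 1 it was 4914 bp and 26666.5 bp, and in replicate 2 it was 5208 bp and 19115 bp. Gaps of up to 1000 bp made up 65 of 199 in the dense zone and 16 of 106 in the sparse zone of the combined list. In the replicate lists short gaps were fewer, with 19 of 126 and 19 of 130 in the dense zone and 5 of 46 and 7 of 51 in the sparse zone. The smaller median gap of the dense zone was seen in all 3 lists. The zones were cut by coverage, so a smaller gap follows in part from the cut, and the values are a description.

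The sparse zone had long stretches without regions. The 5 widest gaps between members all lay there, the first being 198210 bp at X 4602460 to 4800669 and the second 138757 bp at X 4851396 to 4990152. Neither held a region of either replicate. The third, 97936 bp at X 3465876 to 3563811, was overlapped only at its distal edge by 1 region of replicate 2. That region, X 3463372 to 3465905, was the counterpart of the member bordering the gap. In 100 kb bins, 4 bins of the interval had no region in both replicates, at 2.7 to 2.8, 3.5 to 3.6, 4.3 to 4.4 and 4.7 to 4.8 Mb, and the last was empty in the combined list too. The longest gap in the dense zone of the combined list was 47750 bp.

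Some bins of the sparse zone were well covered. The bin from 4.5 to 4.6 Mb had a coverage of 13.3% and 18.3% in the replicates and 31.4% in the combined list. The bin from 3.7 to 3.8 Mb was covered over 12.1%, 12.4% and 25.9%. Both were above the level of the X in all 3 lists and stood beside bins below it, so the sparse zone had short local peaks in place of a continuous stretch.

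Scores were less unequal along the interval than coverage. The median score of the members was 0.478 in the combined list, with quartiles of 0.418 and 0.599. It was 0.488 in the dense zone and 0.462 in the sparse zone. Within replicate 1 the medians were 0.642 and 0.635, and within replicate 2 they were 0.796 and 0.732. By these medians the dense zone was higher in each list by a small amount beside the width of the quartiles. The mean scores were 0.544 and 0.504 in the combined list and 0.823 and 0.780 in replicate 2, but 0.682 in both zones in replicate 1. Among members that overlapped regions of both replicates the order was reversed, with medians of 0.610 in the dense and 0.643 in the sparse zone. Members in 1 replicate alone or in neither had the higher median in the dense zone. Scores tended to rise with width, with a Spearman rho of 0.589 over the 307 members, 0.712 over the 174 regions of replicate 1 and 0.670 over the 183 of replicate 2, across regions that share a library and are not replicates.

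Few members ranked near the top of their whole list, although most were at or above its median. The share at or above that median was 69.4% of the members, 52.3% of the replicate 1 regions and 63.4% of the replicate 2 regions. The members' median of 0.478 stood beside 0.433 over all regions of the combined list, 0.640 beside 0.628 in replicate 1 and 0.783 beside 0.718 in replicate 2. In the top 10% of the scores of each list were 7 of the 307 members (2.28%), 3 of the 174 replicate 1 regions and 7 of the 183 replicate 2 regions. The highest-scoring region of the interval ranked 235 of 10603 in the combined list, 211 of 6098 in replicate 1 and 123 of 6295 in replicate 2.

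**Figure D3:**
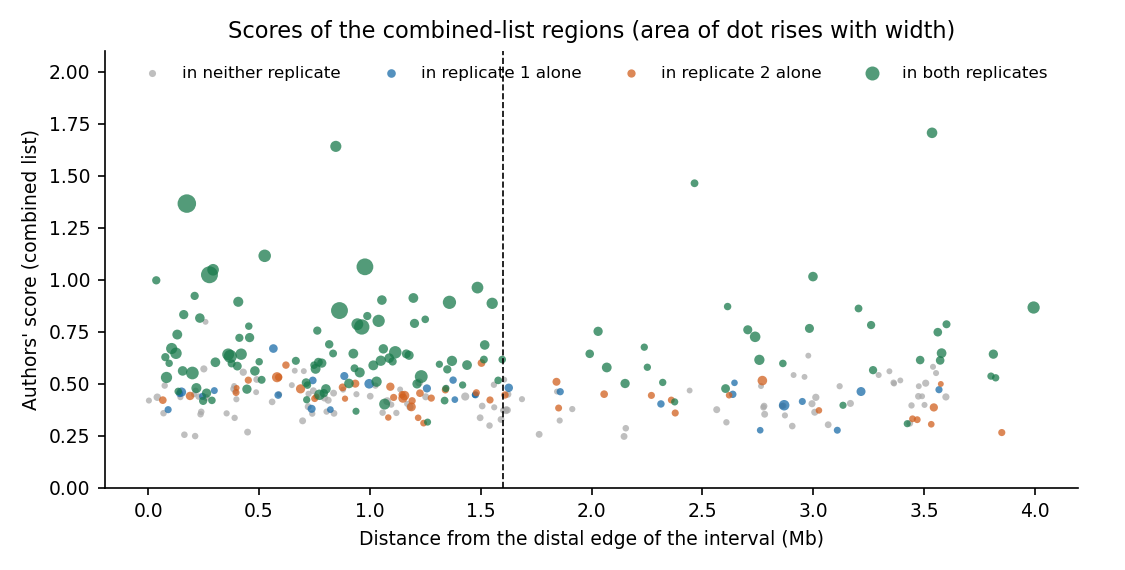
Authors' score in the combined list (y axis) of the 307 members by distance from the distal edge of the interval (x axis, Mb), coloured by the replicates they overlap; the area of a dot rises with width and the dashed line is the end of the dense zone. The 10 highest dots, from 0.997 to 1.71, are in both replicates, and 3 of them lie in the sparse zone.

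The 10 highest-scoring members overlapped regions in both replicates, with 7 in the dense zone and 3 in the sparse zone. The first was X 4533148 to 4538602, in the local peak at 4.5 to 4.6 Mb. It scored 1.74 and 1.91 in the replicates and 1.71 in the combined list, and it was the highest of the interval in each. The third was X 3463367 to 3465875, with scores of 1.44, 1.65 and 1.46 in that order, and it bordered the gap of 97936 bp. The ninth was X 3996734 to 4001034, with scores of 0.965, 1.16 and 1.01. The highest-scoring member, of 5455 bp, and the third, of 2509 bp, thus lay outside the dense zone.

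In the dense zone the highest score belonged to X 1843670 to 1849813, of 6144 bp, with 1.58 and 1.83 in the replicates and 1.64 in the combined list. The widest member, described above, had the next highest score of the zone. It was followed by X 1521903 to 1529932, of 8030 bp, with scores of 1.22, 1.35 and 1.11. X 1289807 to 1296606, of 6800 bp, had 0.982, 1.49 and 1.05. The wide members X 1970412 to 1985647 and X 1269107 to 1284661 had combined scores of 1.06 and 1.02, and the last of the 10 was X 1035430 to 1038381, with 0.857, 1.22 and 0.997. The 7 dense-zone members of this group thus included 3 of the 5 widest.

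Among the 307 members, 124 overlapped regions of both replicates by at least 1 bp (40.4%, 95% Wilson interval 35.1 to 46.0), against 38.6% of all combined-list regions. In neither replicate were 109 (35.5%, 30.4 to 41.0), against 38.7% of all. Replicate 1 alone held 28 (9.12%) and replicate 2 alone 46 (15.0%). For these 2 counts no share over the whole list is given, so they are not read as a trait of the interval. The intervals allow for counting error alone, and neighbouring regions are not independent. The shares in both and in neither replicate lay near those of the whole list. Members in both replicates were wider, with a median of 3882 bp against 1329 bp for those in neither, and had a median score of 0.616 against 0.432. They made up 62.7% of the members' bases. A wider region meets a replicate region by 1 bp more readily, and scores rose with width. The combined list is also not independent of the replicates. How much of these contrasts comes from that was not tested.

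By zone, 92 of the 200 dense-zone members were in both replicates (46.0%, 39.2 to 52.9) and 32 of the 107 sparse-zone members (29.9%, 22.1 to 39.2). In neither replicate were 30.5% and 44.9%. Overlap by chance rises with coverage, and its part in this difference was not tested.

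Between the replicates, 138 of the 174 replicate 1 regions had a partner in replicate 2 (79.3%, 72.7 to 84.7), against 75.8% over all sequences. Of the 183 replicate 2 regions, 129 had a partner in replicate 1 (70.5%, 63.5 to 76.6), against 79.5%. The first share lay near its value over all sequences and the second below it. On the rest of the X beyond 5 Mb the shares were 72.5% and 66.4%. There, as in the interval, the share of replicate 2 was the lower one. The Jaccard index (shared bases over the bases of the union) was 0.577 in the interval, 0.583 in the dense zone, 0.558 in the sparse zone and 0.499 on the X beyond 5 Mb.

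Where a region of one replicate matched exactly 1 of the other, their limits were close. Over 109 such pairs the median shift was 170 bp at the start and 165 bp at the end, and the midpoints of 92 pairs lay within 500 bp. Replicate 2 had the wider region in 58 of the 109. The scores of the pairs had a Spearman rho of 0.677 and the widths 0.736, across regions of the same 2 libraries. The pairs were taken by their overlap, which limits how far their ends can shift, so closeness follows in part by construction. Regions with no partner or with several are left out of these values.

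Compared with the rest of the chromosome, the excess of the interval lay in its dense zone. The interior of the X, from 5 Mb to 5 Mb before the proximal end, was covered over 4.63% in replicate 1 and 5.46% in replicate 2. The dense zone had 4.55 ± 0.186 times that coverage and the sparse zone 0.889 ± 0.0628 times (SD, n = 2). The sparse zone was lower than the interior in both replicates, by less than 1 percentage point each. The zones were cut by coverage, whereas the interior kept its own dense bins. One of these, from 6.6 to 6.7 Mb, was covered over 22.0% and 22.3% in the replicates. Both ratios thus follow in part from the cut and are given as a description. The proximal 5 Mb of the X was covered over 11.6% ± 0.221, next to 11.8% ± 0.820 of the interval, a difference within the spread between replicates. The most covered 100 kb bin of the X in the combined list lay in that part, at 18.5 to 18.6 Mb, with 72.4%.

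**Figure D4:**
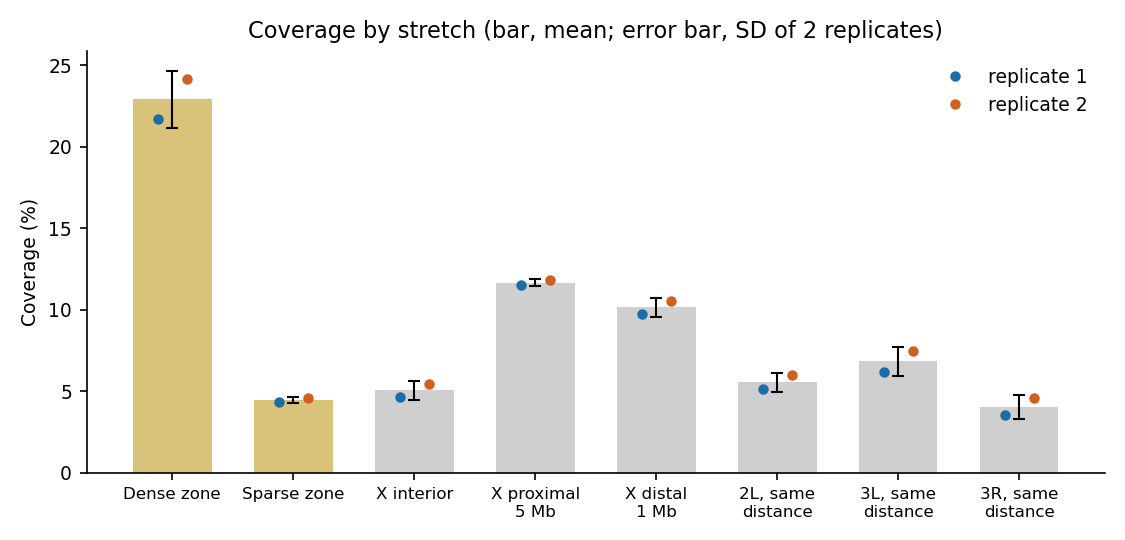
Coverage (y axis, percent of bases) of the dense and sparse zones of the interval (ochre) and of other stretches (grey); bars are means and error bars SDs of the 2 replicates, shown as dots. The dense zone stands at 22.9% and the sparse zone at 4.47%, beside 5.05% in the X interior; the stretches on 2L, 3L and 3R lie 1 to 5 Mb from their telomeric ends.

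The intervals at the same distance from the telomeric end of 3 autosomal arms were covered less. Coverage at 1 to 5 Mb was 6.83% ± 0.899 on 3L, followed by 2L with 5.56% ± 0.585 and 3R with 4.06% ± 0.743 (SD, n = 2). Each replicate value of the X interval was above each value of these arms, the highest of which was 7.46% on 3L. The autosomal intervals had median widths of 1744 to 1901 bp in the combined list, against 2059 bp on the X, and their widest regions measured 9776 to 14348 bp, against 18738 bp. On the X itself the widest regions of the distal 1 Mb and of the proximal 5 Mb, at 18378 and 20926 bp, were close to or above that of the interval. The share of combined-list regions in both replicates was 30.6% on 2L, 31.9% on 3L and 25.4% on 3R, against 40.4% in the X interval and 38.6% over all sequences. Chance overlap rises with coverage here too, and its part was not tested. The X interval was chosen for its coverage and the arms were not, so these values are set side by side without a test.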

How the data were processed

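Su(var)3-7 ChIP-seq was made in 2 replicates with 2 inputs, and groups and replicate numbers come from the labels. The authors deposited a list of enriched regions for each ChIP replicate and a combined list, each region with a start, an end and a score; per the file headers, positions refer to FlyBase release 5. Per the submitters' processing notes, Bowtie 0.12.7 was used on the reads. Not given in the sources used here are the caller of the regions and its limits, the treatment of repeat reads, the scale of the score and how the replicates were combined. A fixed limit of a caller would leave weak binding out, and repeats could be over- or undercounted.

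Rows listed as enriched were kept; the 1 depleted row, on chromosome 4, was not used. Coverage, widths, gaps and overlaps (at least 1 bp) were computed with Python 3.11.15, NumPy 2.4.6, pandas 2.3.3 and SciPy 1.17.1, and the functions were tested on simulated regions. Means carry the SD over 2 replicates and shares 95% Wilson intervals. No test was made, since the interval was selected on the coverage of these lists and regions are not replicates. Depth is unknown.

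The interval, the zones and the lists of compared stretches were chosen with earlier results of these data known. Named regions are members found in both replicates, the 10 with the highest combined score and the 5 widest, with the 5 widest gaps and the neighbours of each edge; domains and single 100 kb bins were named after their values were seen. Alternatives were other overlap criteria, the higher-scoring 50%, other bins and multiples, merged neighbours and each replicate alone.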

Additional observations from a re-analysis of the deposited data

How the results depend on the processing

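Of 31 values under other settings, 13 stayed within the spread between replicates, the counting interval or, for counts, 1.5 times, and 18 moved. The 13 are no measure of stability: 4 leave out 1 of 2 replicates, which cannot move a mean past its SD, and the run of the same length with 200 kb bins lies at 1 to 1.6 Mb in place of 1.7 to 2.3 Mb. Both replicates gave the interval more coverage than the rest of the X, with 11.3% to 12.4% coverage and a ratio of 1.66 to 1.67 without either replicate. The ratio was 1.84 with the higher-scoring 50% of each list (coverage 8.42%), 1.39 in the combined list (coverage 22.0%), 2.35 against the X interior and 1.46 by regions per Mb, so its size depended on these settings. The interval was selected on the coverage of these lists, so the unchanged direction of the ratio is no measure of stability either. Its SD of 0.00124 is small for 2 libraries and is no measure of its precision. Members in both replicates were 29.6% with 50% reciprocal overlap and 68.8% in the higher-scoring 50% of members. Replicate regions with a partner were 63.8% and 60.7% with 50% reciprocal overlap, and 74.7% of replicate 1 and 57.8% of replicate 2 in the higher-scoring 50%. The dense stretch of the combined list was 0.2 Mb at 3 times the coverage of the X (0.4 Mb in each replicate, in the other crest) and 1.6 Mb at 1 times with 1 lower bin allowed, the latter added after the data were seen. Among members in both replicates the median score was 0.616, the median width 3882 bp and the median gap 9644 bp; with neighbours merged the width was 2551 bp and the gap 5260 bp. Stricter overlap and merging change values by construction. No paired analysis was possible because the inputs, which share replicate numbers with the ChIP libraries, have no list of their own; interval and rest were set against each other within each ChIP library. Weaker binding that the lists leave out cannot be seen, and unknown depth limits any statement on stretches without regions.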

Other observations

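Some members of the combined list had no counterpart in either replicate although their scores were not low. The highest of these, named after its values were seen, was X 1258666 to 1259666, with a combined score of 0.798 and a rank of 27 among the 307 members. It measured 1001 bp, the smallest width in the list, and lay 217 bp from the next member in the distal crest. The next was X 3977334 to 3978342, of 1009 bp, with a score of 0.635. Neither replicate list had a region narrower than 1301 bp on any sequence, so both members were narrower than every replicate region. In the other direction, the combined list held all 174 replicate 1 regions of the interval and 182 of the 183 replicate 2 regions. The combined list is not independent of the replicates. No share over all sequences is given here, so these counts are not read as a trait of the interval.

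Most of the 307 members held at most 1 region of each replicate. For replicate 1, 155 held no region, 134 held 1, 15 held 2 and 3 held 3 or more. For replicate 2, 137 held no region, 157 held 1, 13 held 2 and 0 held more. No share over the whole combined list is given beside these counts, so they describe the interval alone. The median width rose with the number of replicate 1 regions held, from 2944.5 bp for members with 1 to 6319 bp for those with 2. A member that holds 2 separate regions has to reach across the gap between them, so part of this rise follows by construction.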
